A study of Camellia sinensis with 12 samples.

Results

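Among the unannotated loci expressed in leaves of 4 tea genotypes, the 423 most abundant are described here. Each has an identifier that starts with XLOC and a mean of at least 40 FPKM over all 12 libraries. Each marks a stretch of a scaffold to which reads mapped and is listed under no annotated gene name. FPKM is the number of fragments per kilobase of feature length, scaled to each library's mapped fragments. The 423 loci are 4.82% of the 8772 unannotated loci and stand among 42704 features in all. They make up 15.4% of the 2738 features that reach this mean, and the other 2315 are annotated genes. The mean FPKM chose the loci, so their levels and shares are a description and carry no test.

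The Kucha genotypes were Kucha-6, written K6 here, and Kucha-11, written K11. They were set against 2 conventional varieties, YH9 (Yinghong 9) and QX1 (Qingxin 1), and each of the 4 has 3 libraries. Kucha is a bitter tea whose leaves store the purine alkaloid theacrine, and the genotypes were chosen for contrasting theacrine content. All plants were grown in a tea germplasm bank in Guangdong and received no treatment, per the labels. Each kind is represented by 2 genotypes, the age of the plants and leaves is not given in the labels, and no label tells whether its 3 libraries are 3 plants. What the p-values measure is thus the spread among libraries, possibly a technical one. The extraction text names retinas in place of leaves, and here the tissue label was followed. Leaf marker genes could not be checked, because the files do not pair identifiers with gene names.

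A locus outside the annotation can be a protein gene that the annotation missed, an untranslated extension of a known gene, a long noncoding RNA, an antisense transcript or the transcript of a transposable element. Libraries made after removal of ribosomal RNA keep transcripts without a poly(A) tail as well, so that noncoding RNA is retained. Such a removal is described in the same extraction text that names retinas. In plants such loci often include genes that are present or active in some cultivars and not in others. The files give no sequence and no function for any of the 423 loci, and no role is assigned to them here.

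The FPKM of a library summed to between 609588 and 653908. Absolute depth is unknown, because no counts are given. Steps between low values placed the YH9 libraries 1.51 to 2.81 times as deep as K6 replicate 2 and the other libraries 0.953 to 1.27 times as deep. All 423 loci passed the filter on low values, and 400 of them had at least 10 FPKM in all 12 libraries. The median spread of the libraries within a genotype was an SD of 0.14 on the log2(FPKM + 1) scale over the 423 loci, against 0.13 over the annotated genes of the same abundance and 0.19 over all 29364 tested features.

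The abundant loci had longer spans than the other unannotated loci. Their median genomic span, from the first to the last base with introns included, was 5133 bases, with quartiles of 2912 and 10058, against a median of 2707 bases with quartiles of 1306 and 6074 for the other 8349 loci. Only 5.20% of the abundant loci spanned under 1 kb, against 17.2% of the others, and 12 spanned 50 kb and more. Span and mean level were related in opposite ways in the 2 sets. Over all 8772 unannotated loci Spearman's rho was 0.36, and over the 423 abundant loci it was -0.18. Both are descriptions across loci, which share libraries. The shortest, XLOC_014973, covered 574 bases on the minus strand of scaffold 1761 (2519023 to 2519596), and the longest, XLOC_007761, covered 291055 bases on the plus strand of scaffold 13658 (547807 to 838861). Positions are those of the deposited tables, whose genome build was not given in the sources used here.

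**Figure D1:**
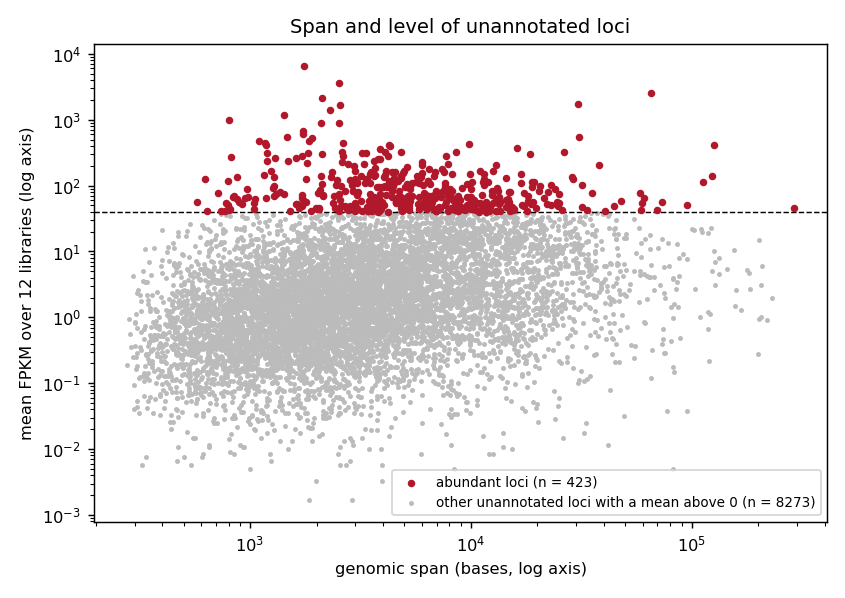
Mean FPKM over 12 libraries (log axis) against genomic span in bases (log axis) for the 423 abundant loci (red) and the 8273 other unannotated loci with a mean above 0 (grey). The dashed line is the threshold of 40 FPKM, and the abundant loci run from 574 to 291055 bases.

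The listed span is not the length by which all the values were scaled. Had FPKM been computed per kilobase of span, the product of FPKM and span over all unannotated loci would give their fragments among each 1000000 mapped. That sum ran from 861917 to 1202787 over the libraries and passed the 1000000 possible in 5 of 12, all 3 of YH9 and 2 of K6. XLOC_063084 alone, with a span of 65715 bases, would have held 154927 of them by the K6 mean, 78807 in K11, 345446 in YH9 and 91668 in QX1. This holds if the FPKM were scaled to 1000000 mapped fragments. The length that was used is not in the files, so a locus of high FPKM cannot be turned into a number of fragments.

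The loci were spread widely. They lay on 364 scaffolds, of which 315 held 1 of them, 41 held 2, 7 held 3 and scaffold 1816 held 5. The plus strand carried 233 loci (55.1%) and the minus strand 190, where 50.2% of the other unannotated loci lay on the plus strand. Another unannotated locus overlapped 46 of the abundant loci (10.9%), and 30 of them (7.09%) had such a partner on the opposite strand. Among the other loci the shares were 11.1% and 8.38%. Overlap with annotated genes was not examined.

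The 423 loci held a similar part of the summed FPKM in each genotype. Their share was 11.04% ± 0.089 for K6, 10.5% ± 0.15 for K11, 10.6% ± 0.32 for YH9 and 10.8% ± 0.21 for QX1 (mean ± SD, n = 3 libraries each). The K6 libraries (10.98% to 11.14%) lay above those of K11 (10.29% to 10.56%) and YH9 (10.24% to 10.87%), and overlapped those of QX1 (10.60% to 11.01%). Of the FPKM of all unannotated loci, the abundant loci held 67.2% ± 0.33 for K6, 63.2% ± 1.02 for K11, 61.2% ± 1.39 for YH9 and 67.3% ± 1.15 for QX1. The ranges of K6 and QX1 overlapped each other and lay above those of K11 and YH9, which also overlapped. The annotated genes of at least 40 FPKM held 53.5% of the summed FPKM for K6, 51.2% for K11, 47.4% for YH9 and 54.6% for QX1.

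A few loci made up much of the share. The highest locus gave 9.76% of the summed mean FPKM of the 423, the 5 highest gave 24.6%, the 20 highest 42.1% and the 35 highest 50.1%. The 5 highest held 3.26% ± 0.15 of all FPKM for K6, 2.203% ± 0.053 for K11, 2.15% ± 0.086 for YH9 and 2.93% ± 0.11 for QX1. The 418 other loci had the opposite order, with 7.78% ± 0.093 for K6, 8.25% ± 0.14 for K11, 8.43% ± 0.26 for YH9 and 7.86% ± 0.099 for QX1 (SD, n = 3 each). For these 418 the libraries of K6 and QX1 (7.70% to 7.95%) lay below those of K11 and YH9 (8.11% to 8.63%). Shares of 1 total are bound to each other, so that a higher share of some features lowers that of the rest.

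**Figure D2:**
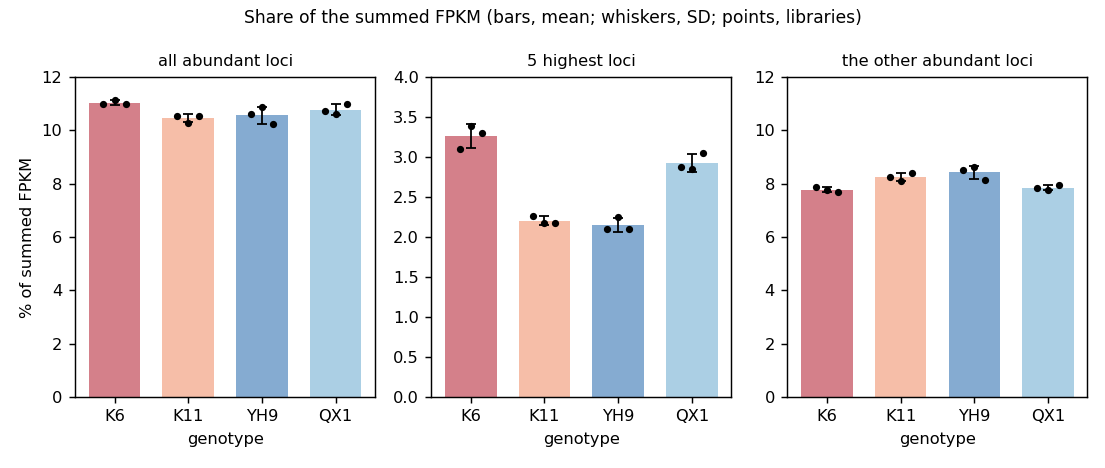
Share of the summed FPKM (in %) held by all 423 abundant loci, by the 5 highest and by the other 418, for K6, K11, YH9 and QX1. Bars are means, whiskers SD and points the 3 libraries; the 5 highest held 3.26% of K6, 2.203% of K11, 2.15% of YH9 and 2.93% of QX1 FPKM.

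XLOC_064824, on the plus strand of scaffold 825 (411838 to 413583, span 1746), was the most abundant unannotated locus and the second most abundant feature of all. It stood at 10612, 11136 and 11418 FPKM in K6, 2014, 3663 and 2331 in K11, 993, 977 and 819.65 in YH9, and 11165, 11351 and 12701 in QX1. The libraries of K6 and QX1 overlapped and lay far above those of K11, which in turn lay above those of YH9. The K6 mean was 11.9 times and the QX1 mean 12.6 times the YH9 mean. On the log2(FPKM + 1) scale K6 exceeded YH9 by 3.57 ± 0.17 (SE; limma, adjusted p = 2.72e-09), K11 exceeded YH9 by 1.48 ± 0.17 (limma, adjusted p = 7.35e-06), and K11 against QX1 was -2.18 ± 0.17 (limma, adjusted p = 2.91e-07). K6 against QX1 gave -0.08 ± 0.17 (limma, adjusted p = 0.747). This locus alone made up 15.9% of the FPKM of the 423 loci for K6, 4.05% for K11, 1.42% for YH9 and 16.9% for QX1.

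XLOC_032209, on the minus strand of scaffold 2907 (33636 to 36175), was the first or second locus in every genotype. It stood at 2791, 3456 and 3219 FPKM in K6, 5990.4, 4717 and 5872 in K11, 3327, 3932 and 3233 in YH9, and 2256, 2005 and 2559.7 in QX1. Every K11 library was above every other library, and every QX1 library below. K11 exceeded QX1 by 1.28 ± 0.13 (SE; limma, adjusted p = 2.84e-06), which was the largest difference between genotypes.

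XLOC_063084, on the minus strand of scaffold 7703 (68062 to 133776), led in YH9. It had 2218, 2590.3 and 2264 FPKM in K6, 1322, 1164 and 1111 in K11, 5077, 5454 and 5239 in YH9, and 1411, 1373 and 1401 in QX1. YH9 was above each other genotype without overlap. K6 against YH9 was -1.16 ± 0.09 and K11 against YH9 was -2.13 ± 0.09 (SE; limma, adjusted p = 1.95e-07 and 6.95e-10). YH9 exceeded QX1 by 1.91 ± 0.09 (SE; limma, adjusted p = 1.89e-09).

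XLOC_037659, on the minus strand of scaffold 34215 (11933 to 14047), was also highest in YH9. It had 1977, 2197 and 1955 FPKM in K6, 1785, 1538 and 1484 in K11, 3071, 3343 and 3099 in YH9, and 1978, 1708 and 1822 in QX1. All 3 YH9 libraries were above the 9 others. The largest difference, K11 against YH9, was -0.99 ± 0.09 (SE; limma, adjusted p = 1.24e-06) and stayed just under the fold threshold of 1 log2.

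XLOC_035560, on the minus strand of scaffold 319 (928847 to 959508), was lowest in YH9. It had 1904, 2053 and 1931 FPKM in K6, 3187, 2754 and 2755 in K11, 448, 536 and 414 in YH9, and 1494, 1665 and 1495 in QX1. The genotypes did not overlap in any pair. K6 exceeded YH9 by 2.08 ± 0.10 and K11 exceeded YH9 by 2.64 ± 0.10 (SE; limma, adjusted p = 3.62e-09 and 3.87e-10). In all, 12 loci, these 5 included, were among the 20 highest of the 423 in all 4 genotypes.

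The next question was which of the loci differ between the genotypes. Differences were tested with limma on log2(FPKM + 1) in 1 model over all 29364 tested features, and p-values were adjusted over all of them. By limma's F test over the 4 genotypes at an adjusted p below 0.05, with a difference of at least 1 log2 between the highest and the lowest genotype, 164 of the 423 loci (38.8%) were called. Over all tested features 45.7% were called, so the share of the abundant loci was below the background at this fold threshold. Without the fold threshold the order turned, with 374 of the 423 loci (88.4%) at an adjusted p below 0.05, against 80.9% of all tested features and 91.4% of the annotated genes of at least 40 FPKM. At that adjusted p, 210 of the 423 loci (49.6%) had a largest difference under 1 log2, against 35.2% of all tested features. With the fold threshold, 45.5% of the annotated genes of at least 40 FPKM were called. Of the 6159 other unannotated loci that passed the filter on low values it was 65.5%. Among the 164 called loci the median of the largest difference was 1.88, with 69 loci at 2 or more and 27 at 3 or more. These counts are given without a background. They include loci that reached the mean of 40 FPKM only through their highest genotype.

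A locus high in a single genotype can reach the mean of 40 FPKM through that genotype, and its difference then follows from the choice. In 74 loci the mean over the other 3 genotypes was below 40 FPKM, and 54 of them were called. The 74 also include loci close to the threshold that differ little. Of the 349 loci that reach the mean without their highest genotype 31.5% were called, and of the 274 with a mean of at least 40 FPKM in every genotype 23.4%. By abundance, 38.2% of the 170 loci of 40 to 60 FPKM were called, 39.1% of the 110 of 60 to 100, 33.3% of the 84 of 100 to 200 and 47.5% of the 59 of 200 and more. The annotated genes had 39.6%, 40.4%, 51.8% and 63.9% in the same classes.

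Pairs of genotypes gave the following counts, each with the percentage of all tested features called the same way. In K6 against YH9, 82 loci were called (all features 21.9%), 42 higher (8.52%) and 40 lower (13.4%) in K6. In K6 against QX1, 32 were called (11.8%), 20 higher (5.83%) and 12 lower (6.02%) in K6. In K11 against YH9, 92 were called (23.9%), 32 higher (10.3%) and 60 lower (13.5%) in K11. In K11 against QX1, 75 were called (19.2%), 31 higher (10.6%) and 44 lower (8.62%) in K11. K6 and K11 differed in 70 loci (19.2%), 44 higher (8.71%) and 26 lower (10.5%) in K6. The conventional varieties differed in 87 loci (23.8%), 49 higher (14.6%) and 38 lower (9.24%) in YH9. K6 against QX1 thus had the fewest called loci of the 6 pairs, as it had over all features.

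In 2 of these pairs the side with more called loci changed with the scaling or with the choice of loci. In K6 against YH9 quantile normalization gave 39 higher and 45 lower loci, and scaling by a trimmed mean of M-values (TMM) 50 and 32. In YH9 against QX1 the TMM split was 40 higher and 48 lower. TMM scaling moved the median log2 difference of all tested features to -0.02 from -0.15 in K6 against YH9 and to 0.01 from 0.17 in YH9 against QX1. Of the 349 loci that reach the mean without their highest genotype, 33 were higher and 18 lower in K6 against YH9, and 22 higher and 30 lower in YH9 against QX1. Of the 274 with the mean in every genotype the counts were 18 and 9, and 14 and 17. As deposited, the median over the 423 loci was -0.15 in K6 against YH9 and 0.18 in YH9 against QX1. In K11 against YH9 lower loci stayed the more frequent, but by less than the 32 higher and 60 lower of all 423. Of the 349 loci 25 were higher and 31 lower there, and of the 274 loci 14 and 17.

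**Figure D3:**
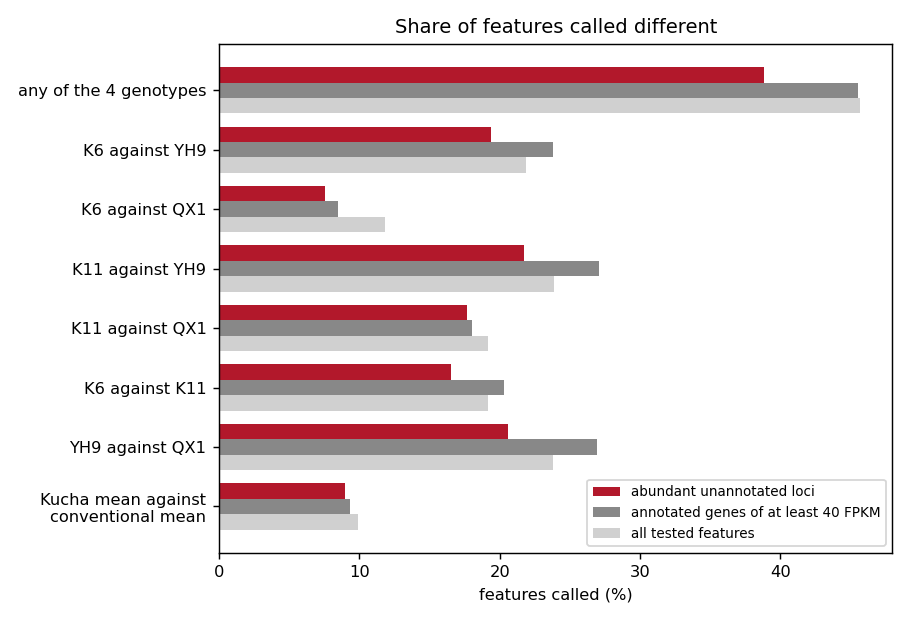
Percentage of features called different by limma in 8 comparisons (rows), for the 423 abundant unannotated loci (red), the 2315 annotated genes of at least 40 FPKM (dark grey) and all 29364 tested features (light grey). The abundant loci had 38.8% called over the 4 genotypes, against 45.5% of the annotated genes and 45.7% of all features.

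Patterns that set 1 genotype apart were the more frequent kind in these loci, as they were over all tested features. K11 was lower than each other genotype, by all 3 pair tests, in 22 loci (all features 2.33%) and higher in 6 (3.63%). YH9 was higher than each other genotype in 21 loci (6.11%) and lower in 18 (2.49%). K6 was higher than the other 3 in 4 loci (1.69%) and lower in 3 (0.957%), and QX1 was higher in 4 (2.21%) and lower in 6 (1.19%). The 22 loci low in K11 are 5.20% of the 423 and the 18 low in YH9 are 4.26%, and the annotated genes of at least 40 FPKM had 5.23% and 6.87%. With quantile normalization the counts low in K11 and in YH9 were 23 and 18, and with TMM scaling 24 and 24. The mean level was chosen over all genotypes, and a locus high in 1 genotype alone can enter through it. Of the 349 loci that reach the mean without their highest genotype, 12 were lower and 3 higher in K11, 16 lower and 5 higher in YH9, 3 lower and 0 higher in K6, and 4 lower and 3 higher in QX1 than in each other genotype by limma. Of the 21 loci highest in YH9, 16 are thus among those that entered through YH9, and their count says nothing beyond that choice.

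Few loci divided the genotypes 2 against 2, a pattern that takes 4 pair tests in place of 3. K6 and QX1 were both higher than K11 and YH9, in all 4 pair tests, in 8 loci (all features 1.38%) and lower in 5 (1.85%). K6 and YH9 were higher than K11 and QX1 in 4 loci (0.753%) and lower in 0 (0.593%). K6 and K11, the Kucha pair, were higher than YH9 and QX1 in 0 loci (0.545%) and lower in 0 (0.657%) by limma. At an unadjusted p below 0.05 in all 4 tests and with no fold threshold, 19 loci were higher (all features 3.5%) and 18 lower (3.22%) in the Kucha pair, and 19 were lower in K6 and YH9 (3.81%). These are near the background. Across the other scalings, a pseudocount of 0.1 and the replicate block, at most 1 locus was in either Kucha pattern. In all, 85 loci fell in at least 1 of these patterns and 15 in more than 1. No share over all features is given for these 2 counts, so they cannot be set against a background.

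**Figure D4:**
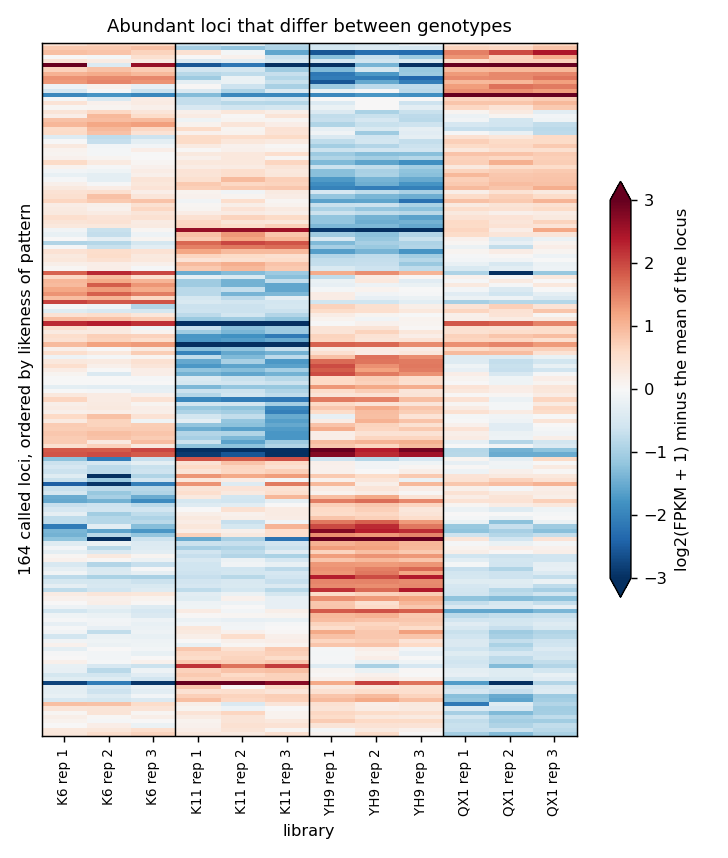
Level of the 164 called loci (rows, ordered by likeness of pattern) in the 12 libraries (columns), as log2(FPKM + 1) minus the mean of the locus; red is above and blue below that mean, and colours end at 3 log2. Blocks of rows are bluest in the 3 K11 libraries or in the 3 YH9 libraries, and they include the 22 loci lower in K11 and the 18 lower in YH9 than in each other genotype, some of which are also below the row mean in another genotype.

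Single loci show how far these differences reach. Some loci would miss the mean of 40 FPKM with a high genotype at the level it is compared with. That difference is then a description, with no p-value. So are differences from a highest genotype without which the mean is below 40 FPKM. XLOC_035447, on the minus strand of scaffold 31843 (2404 to 3446, span 1043), was nearly silent in K11. It had 42.9, 51.7 and 53.7 FPKM in K6, 0.25, 0.35 and 0.22 in K11, 76.5, 74.0 and 60.2 in YH9, and 57.7, 62.2 and 54.4 in QX1. K11 lay below all 9 other libraries, and the other genotypes lay close together. Without YH9, its highest genotype, the mean was 35.9 FPKM, and K11 against YH9 was -5.80 ± 0.11 (SE). K11 against QX1 gave -5.54 ± 0.11 and K6 against K11 5.30 ± 0.11 (SE). K6 and QX1 also carried the locus to the mean of 40 FPKM, so these differences are a description too.

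XLOC_026192, on the plus strand of scaffold 2437 (412912 to 423762), was also near 0 in K11, with an intermediate level in YH9. It had 83.8, 91.0 and 81.0 FPKM in K6, 0.16, 0.04 and 0.08 in K11, 16.9, 18.6 and 18.1 in YH9, and 64.1, 61.5 and 49.8 in QX1. No genotypes overlapped. It reached the mean through K6, which exceeded K11 by 6.30 ± 0.10, YH9 by 2.19 ± 0.10 and QX1 by 0.54 ± 0.10 (SE). K11 against YH9 was -4.11 ± 0.10 and K11 against QX1 -5.76 ± 0.10 (SE). The levels of QX1 and YH9 were needed for the mean as well, so these too are a description.

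XLOC_062244, on the plus strand of scaffold 747 (1425639 to 1428159), was high in QX1 and near 0 in the others. It was listed at 0, 0.11 and 0 FPKM in K6, at 0.55, 0 and 0 in K11, and at 0, 0.14 and 0.06 in YH9, while QX1 had 163.6, 165 and 157. A listed 0 can stand for a level below the rounding. K6 against QX1 gave -7.30 ± 0.17, K11 against QX1 -7.14 ± 0.17 and YH9 against QX1 -7.26 ± 0.17 (SE). The locus reached the mean of 40 FPKM through QX1 alone, so it had to differ. These 3 loci were the only ones of the 423 with a genotype mean below 1 FPKM.

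XLOC_067609, on the plus strand of scaffold 911 (53143 to 54187), was high in K11 and YH9. It had 1.71, 3.32 and 1.42 FPKM in K6, 158, 189 and 122 in K11, 39.3, 75.8 and 56.3 in YH9, and 4.73, 0.43 and 9.10 in QX1. The libraries of K11 and YH9 did not overlap those of K6 and QX1. It reached the mean through K11, and K6 against K11 was -5.66 ± 0.59 (SE). YH9 against QX1 was 3.69 ± 0.59 (SE; limma, adjusted p = 0.000321). Its SE was larger than that of the loci above, and its QX1 libraries ran from 0.43 to 9.10 FPKM.

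XLOC_059488, on the minus strand of scaffold 675 (678045 to 680049), was highest in YH9. It had 5.11, 0 and 8 FPKM in K6, 3.90, 6.08 and 2.02 in K11, 110.5, 198 and 146 in YH9, and 17.1, 8.39 and 17.7 in QX1. All YH9 libraries were above all others, and K6 replicate 2 was listed at 0. K6 against YH9 was -5.29 ± 0.71, K11 against YH9 -4.98 ± 0.71 and YH9 against QX1 3.33 ± 0.71 (SE). It reached the mean through YH9, so these differences are a description.

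XLOC_018040, on the minus strand of scaffold 1916 (2536538 to 2542908), was lowest in YH9 and highest in K11. It had 49.2, 32.8 and 55.1 FPKM in K6, 328, 334 and 312 in K11, 6.20, 5.46 and 5.27 in YH9, and 83.8, 60.9 and 118 in QX1. The genotypes did not overlap in any pair. K11 exceeded YH9 by 5.62 ± 0.21 (SE). The locus would miss the mean of 40 FPKM with K11 at the YH9 level, so this is a description. K11 exceeded QX1 by 1.93 ± 0.21, and K6 against K11 was -2.83 ± 0.21 (SE; limma, adjusted p = 7.85e-06 and 2.5e-07).

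**Figure D5:**
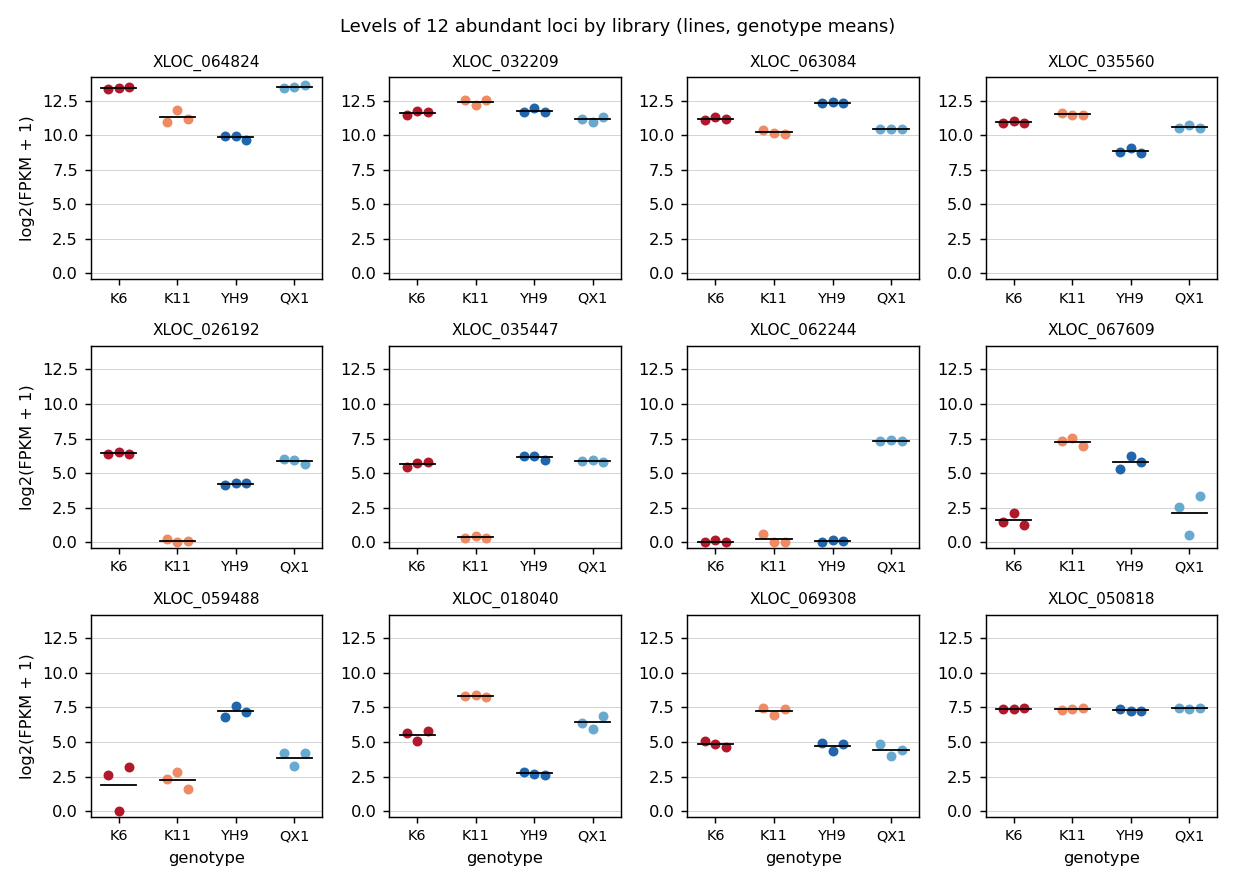
Level as log2(FPKM + 1) of 12 named abundant loci in K6, K11, YH9 and QX1; points are the 3 libraries of a genotype and lines their mean. XLOC_035447 and XLOC_026192 are near 0 in K11, XLOC_062244 is high in QX1 alone, and XLOC_050818 differs little between the genotypes.

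The mean of the Kucha genotypes was then set against the mean of the conventional varieties. Of the 423 loci 38 were called (all features 9.91%), 11 higher (4.51%) and 27 lower (5.39%) in Kucha, and the median log2 difference over the loci was -0.04, as over all tested features. The split was 12 and 28 under quantile normalization and 12 and 25 under TMM. It depended on how the loci were chosen: of the 349 loci that reach the mean without their highest genotype 7 were higher and 9 lower in Kucha, and of the 274 with the mean in every genotype 3 and 4. By limma, 0 of the 38 were called the same way in all 4 pairs that set a Kucha genotype against a conventional one. In 9 of them 3 pairs were called and in 29 of them 2. In 12 of the 38, 4 higher and 8 lower, the 6 Kucha libraries did not overlap the 6 conventional ones. That is 2.84% of the 423 loci, against 3.16% of all tested features called without overlap, 1.6% higher and 1.56% lower, so it is near the background.

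The 2 loci highest in Kucha were both highest in K11. They were XLOC_018040, at 2.35 ± 0.15, and XLOC_069308, at 1.51 ± 0.15, for the Kucha mean against the conventional mean (SE). Both are given as a description. XLOC_069308 passed the mean of 40 FPKM through K11, and XLOC_018040 would miss it with K11 at the YH9 level. In XLOC_018040 the low level of YH9 entered as well, with K6 above YH9 by 2.78 ± 0.21 (SE; limma, adjusted p = 2.22e-07) and K6 against QX1 at -0.91 ± 0.21 (limma, adjusted p = 0.00481). XLOC_069308, on the minus strand of scaffold 974 (93998 to 141867), had 33.0, 27.8 and 24.4 FPKM in K6, 178, 122 and 169 in K11, 29.4, 19.4 and 27.3 in YH9, and 27.3, 15.2 and 20.7 in QX1. Its K6 libraries overlapped those of YH9 and QX1, and all K11 libraries were above the 9 others. K6 against YH9 gave 0.17 ± 0.21 and K6 against QX1 0.44 ± 0.21 (SE; limma, adjusted p = 0.528 and 0.126).

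The 2 loci lowest in Kucha were each high in 1 conventional variety. XLOC_062244 had -3.59 ± 0.12 and XLOC_059488 had -3.46 ± 0.51 for the Kucha mean against the conventional mean (SE), and as both reached the mean of 40 FPKM through that variety, no p-value is given. The values given above show the first as high in QX1 and the second as high in YH9, and for XLOC_059488 the QX1 libraries still lay above all Kucha libraries.

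The 12 libraries lay within 1 log2 in 206 of the 423 loci, and the median of this range was 1.05. The share over all features is not given here, so this cannot be called particular to these loci. A range within 1 log2 still allows genotypes to differ: 374 of the 423 had an adjusted p below 0.05 by limma's F test without a fold threshold. The steadiest was XLOC_050818, on the minus strand of scaffold 4947 (142623 to 147621). It had 165, 163 and 176 FPKM in K6, 159, 165 and 174 in K11, 163, 152 and 153 in YH9, and 175, 171 and 173 in QX1. All genotypes but YH9 and QX1 overlapped, and the 12 libraries spanned 0.21 log2. Next came XLOC_009799, between 40.3 and 48.5 FPKM over all libraries, and XLOC_020683, between 40.8 and 49.5, with ranges of 0.26 and 0.27 log2. They lie on scaffold 1480 (1098569 to 1104893) and scaffold 2091 (601691 to 612939), both on the plus strand. These steadiest loci were chosen by their small range, so no test is given for them. A small range does not show equal levels.

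The threshold of 40 FPKM separates like loci. Just inside it were XLOC_044556, with a mean of 40.2 FPKM, and XLOC_031654, with 40.3. XLOC_044556 ranged from 28.9 to 49.4 over the libraries, and XLOC_031654 had 79.9, 109 and 91.0 in K6, 17.3, 11.1 and 11.5 in K11, 36.3, 28.4 and 30.1 in YH9, and 24.2, 19.98 and 25.6 in QX1. It reached the mean through K6, whose libraries were above all others. Just outside were XLOC_045492 at 39.9 FPKM and XLOC_021133 at 39.9, which ranged from 25.5 to 58.0 and from 28.0 to 51.5.

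Calls were unevenly spread over span. Of the 43 loci that span 1 to 2 kb 67.4% were called by the F test, against 72.8% of the other unannotated loci of that span. The others are counted here only where they were tested. Of the 12 that span 50 kb and more 83.3% were called, against 57.1% of the others, and 12 loci are few. Under 1 kb it was 45.5% of 22 loci, against 71.5%, and from 2 to 5 kb 39.4% of 142, against 69.1%. From 5 to 10 kb it was 27.8% of 108, against 57.4%, and from 10 to 50 kb 30.2% of 96, against 54.04%. These shares are descriptions of loci chosen by their mean, and the median mean level also differed, from 125 FPKM at 1 to 2 kb to 58.5 at 10 to 50 kb. The shortest locus, XLOC_014973, had 51.1, 46.7 and 28.1 FPKM in K6, 33.2, 32.8 and 36.1 in K11, 85.5, 73.1 and 59.1 in YH9, and 69.3, 85.9 and 69.6 in QX1. Its 6 Kucha libraries were all below its 6 conventional libraries. K11 against QX1 was -1.11 ± 0.19 (SE; limma, adjusted p = 0.000322). The Kucha mean against the conventional mean was -0.96 ± 0.13 (SE), under the fold threshold. The conventional levels helped the locus reach the mean of 40 FPKM, so the second difference is a description. The longest, XLOC_007761, was highest in K11, with 35.4, 23.5 and 37.9 FPKM in K6, 68.8, 76.3 and 79.2 in K11, 44.8, 36.6 and 43.2 in YH9, and 34.4, 32.5 and 28.6 in QX1. K11 was above all others, by 1.21 ± 0.15 over QX1 (SE), and the mean without K11 was 35.2 FPKM.

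Of the 72 pairs of abundant loci on the same scaffold, 6 overlapped, 4 on opposite strands and 2 on the same strand. The 3 pairs that shared the most bases were all on opposite strands. Where the counting did not use strand, reads of such partners cannot be told apart. The extraction text names a dUTP step, which bears on strand, but the sources used here do not give how strand was used in counting. XLOC_035560 overlapped XLOC_035545, on the plus strand of scaffold 319 (928594 to 959489), over 30643 bases, nearly the whole of both. XLOC_035545 had 624, 738 and 619.8 FPKM in K6, 796, 749.9 and 710.5 in K11, 274, 297 and 246 in YH9, and 495, 515 and 456 in QX1, so both were lowest in YH9 and highest in K11 by their means. K11 against YH9 was 1.47 ± 0.10 for XLOC_035545 (SE; limma, adjusted p = 4.12e-08), and 2.64 ± 0.10 for its partner. Whether the ratio of the partners differs between the genotypes was not tested.

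XLOC_012234 and XLOC_012247, on scaffold 1611 (97923 to 107532 on the plus strand, and 97758 to 101093 on the minus strand), overlapped over 3171 bases. XLOC_012234 had 16.3, 17.6 and 12.5 FPKM in K6, 33.6, 32.1 and 40.6 in K11, 144, 158 and 134 in YH9, and 66.1, 66.9 and 81.5 in QX1, with no overlap between any genotypes. K6 against YH9 was -3.16 ± 0.13 (SE), a description, because the locus needed the YH9 level to reach the mean of 40 FPKM. XLOC_012247 averaged 92.0 ± 5.13 FPKM for K6, 79.6 ± 11.9 for K11, 203 ± 17.0 for YH9 and 128 ± 7.07 for QX1 (SD, n = 3 each), and its K6 against YH9 difference was -1.13 ± 0.11 (SE; limma, adjusted p = 1.28e-06). YH9 was the highest genotype in both loci, while K6 was the lowest in the first and K11 had the lowest mean in the second.

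XLOC_026394 and XLOC_026405 shared 2339 bases of scaffold 245 (1926211 to 1946722 on the plus strand, and 1944384 to 1949590 on the minus strand). XLOC_026394 averaged 107 ± 10.8 FPKM for K6, 106 ± 4.95 for K11, 62.1 ± 11.4 for YH9 and 114 ± 29.8 for QX1 (SD, n = 3 each). XLOC_026405 averaged 72.3 ± 6.33 FPKM for K6, 72.8 ± 3.15 for K11, 44.4 ± 1.28 for YH9 and 91.5 ± 6.15 for QX1. Both had their lowest mean in YH9. YH9 against QX1 was -0.85 ± 0.18 and -1.03 ± 0.08 (SE; limma, adjusted p = 0.0011 and 2.92e-07), the first under the fold threshold. Over the 12 libraries the log2 levels of the partners had a Pearson r of 0.98, 0.85 and 0.80 in the 3 pairs. In the other overlapping pair on opposite strands, XLOC_029218 and XLOC_029222, r was 0.36. In the 2 overlapping pairs on the same strand it was 0.99 (XLOC_010111 and XLOC_010112) and -0.34 (XLOC_002076 and XLOC_002078). Each r describes libraries that fall into 4 genotypes, and partners may share reads.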

How the data were processed

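The authors deposited 1 table per library with FPKM values to 2 decimals, per the file headers. Bowtie2 2.2.8 and TopHat2 2.1.1 are named in the submitters' processing notes. The program that computed FPKM, its feature lengths and the genome build are not stated in these sources. The length column of the deposited tables, another measure in bases, equals end minus start plus 1 in all 8772 unannotated loci. Of the identifiers 0 matched the 80110 genes of a RefSeq table, so no gene name, function or sequence is given.

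The filter kept the 29364 features that reach 1 FPKM in 3 libraries or more. They were tested on log2(FPKM + 1), a scale that understates changes at low values, with limma 3.58.1 in R 4.3.3 (trended, robust prior) and a term for each genotype over the 12 libraries. The procedure was tested on simulated data first. Calls needed a Benjamini-Hochberg adjusted p below 0.05 and 1 log2; the F test used the largest difference between genotype means. Backgrounds are percentages of all tested features called. Relative depth came from ratios of low FPKM values to those of K6 replicate 2.

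The loci and the lists were chosen with earlier results of these data known. Named are the 5 highest loci, and the locus most above and most below the other genotypes in each genotype. So are the 2 highest and 2 lowest called in Kucha and the 3 steadiest. Also named are 2 on either side of the threshold, the shortest, the longest and the 3 pairs that share the most bases. Alternatives were the pseudocount, the filter, 2 scalings, a replicate block, fits restricted to a pair, leave-one-out fits and other thresholds.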

Additional observations from a re-analysis of the deposited data

How the results depend on the processing

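The counts of called loci stayed within 1.5 times under a pseudocount of 0.1, no filter, a filter of 5 FPKM, quantile normalization, TMM scaling, the replicate block, fits on only the genotypes compared and each library left out. Membership mattered more. With a mean of at least 40 FPKM required in every genotype, which leaves 274 loci, 64 were called by the F test in place of 164. The pair counts were then 27 for K6 against YH9, 6 for K6 against QX1, 31 for K11 against YH9, 26 for K11 against QX1, 16 for K6 against K11 and 31 for YH9 against QX1, with 7 for the Kucha mean against the conventional mean. Fewer loci enter, and those low in a genotype are left out. With a mean of at least 20 FPKM the share of the summed FPKM was 12.8% for K6, 12.5% for K11, 12.7% for YH9 and 12.5% for QX1. With 80 FPKM it was 9.03% for K6, 8.47% for K11, 8.10% for YH9 and 8.85% for QX1. Without the 10 most abundant features, 4 of them abundant loci, it was 8.60% for K6, 9.18% for K11, 8.95% for YH9 and 8.70% for QX1, so that K6 had the lowest mean in place of the highest. The samples share only a replicate number. Of 18 same-numbered pairs 0 correlated above 0.1 (-0.10 to 0.06), and 4 correlated best with their own number. With the replicate block the F test called 164 loci. Of 888 alternatives for values of named loci, 1 changed sign. K6 against QX1 in XLOC_067609, -0.52 with all libraries, ran from -1.32 (without QX1 replicate 2) to 0.091 when 1 library was left out, with 0.091 reached without QX1 replicate 3, and the cause was not tested. The largest difference in XLOC_037659 passed 1 log2 with quantile normalization (1.14) and without K11 replicate 1 (1.07), YH9 replicate 1 (1.01) or YH9 replicate 3 (1.004). That in XLOC_026394 was called with TMM scaling (1.04) or without QX1 replicate 3 (1.09), and that in XLOC_026405 was not without QX1 replicate 2 (0.9998) or QX1 replicate 3 (0.996). The number of libraries limits the precision, and depth is unknown.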

Other observations

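Some loci outside the naming rule are described here because of their values. XLOC_010112, on the minus strand of scaffold 1492 (3495322 to 3497104), lies wholly within XLOC_010111 on the same strand (3491719 to 3499499). XLOC_010111 had 103, 100.4 and 114 FPKM in K6, 2.65, 1.03 and 1.40 in K11, 232, 145 and 211 in YH9, and 14.8, 9.75 and 11.4 in QX1. XLOC_010112 had 84.7, 89.1 and 82.6 FPKM in K6, 2.18, 2.94 and 0.52 in K11, 156, 108 and 133 in YH9, and 12, 7.29 and 7.26 in QX1. In both, all genotypes lay in the order YH9, K6, QX1 and K11 without overlap. Both reached the mean of 40 FPKM through YH9, so its place at the top is a description. K6 exceeded K11 by 5.35 ± 0.22 in XLOC_010111 (SE; limma, adjusted p = 1.33e-09) and by 5.02 ± 0.29 in XLOC_010112 (SE). XLOC_010112 needed the level of K6 as well to reach the mean, so its difference is a description. Whether the nested loci share reads cannot be told from the files.

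XLOC_002076, on the plus strand of scaffold 1091 (1249234 to 1307291), had 42.6, 0.16 and 29.0 FPKM in K6, 137, 122 and 131 in K11, 94.7, 79.9 and 94.1 in YH9, and 73.0, 67.4 and 67.8 in QX1. K6 replicate 2 stood apart from the 11 other libraries. The largest difference between genotypes was 3.51 (limma's F test, adjusted p = 0.0457) and was 1.86 without that library (limma's F test, adjusted p = 1.08e-06). XLOC_002078, nested in it on the same strand (1273458 to 1274095), had 48.2, 42.7 and 57.4 FPKM in K6, 7.82, 11.04 and 11.97 in K11, 47.5, 40.8 and 43.5 in YH9, and 66.9, 65.0 and 46.3 in QX1. The inner locus was lowest in K11, where the outer one had its highest values. XLOC_002078 reached the mean of 40 FPKM through QX1, its highest genotype.

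Among the 12 loci that span 50 kb and more, the most abundant beside XLOC_063084 was XLOC_005915, which covers 126576 bases of the plus strand of scaffold 1268 (1901487 to 2028062). It had 702, 729.9 and 743 FPKM in K6, 347, 402 and 398 in K11, 236, 268 and 218 in YH9, and 352, 262 and 349 in QX1. All K6 libraries were above the 9 others, with K6 against YH9 at 1.59 ± 0.12 and K6 against QX1 at 1.19 ± 0.12 (SE; limma, adjusted p = 1.42e-07 and 5.66e-06).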
